A study of Homo sapiens with 6 samples.

Results

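The genes described here were histone genes with the names of the clustered, replication-dependent type, taken from the rows of the count table whose symbol was H1, H2AC, H2BC, H3C or H4C followed by a number. They were 56 genes among 23152 rows, 7 of the H1 class, 14 of H2A, 13 of H2B, 11 of H3 and 11 of H4, and all 56 matched a RefSeq symbol. No row carried the older HIST names. RefSeq places 55 of them in the histone gene groups of chromosomes 6 and 1. H1-10 stands alone on chromosome 3, is not tied to replication, and is set apart below.

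RNA was measured in T24, an established human bladder cancer cell line that was grown in RPMI 1640 with fetal bovine serum. The 3 control samples (vector) carried the empty vector and the 3 samples named oeRNF112 overexpressed RNF112, a RING finger protein that acts as a ubiquitin ligase. The treatment text of the labels speaks of siRNA delivered with Lipofectamine, while the titles name vector and oeRNF112, and the time between transfection and harvest is not given in the sources used here. Libraries were made with a stranded mRNA kit and held between 40029547 and 41259569 counted reads. No source states that samples came from separate cultures, so p-values measure the spread between these samples, which may be technical. RNF112 had 27, 19 and 24 reads in the vector samples and 29753, 36963 and 31712 in oeRNF112, which fits the labels, and reads of the introduced construct cannot be told apart from those of the gene.

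Core histones H2A, H2B, H3 and H4 form the octamer around which DNA is wound, and linker histone H1 binds where the DNA enters and leaves it. The clustered genes are copied mainly in S phase, and most of their mRNAs end in a short stem-loop in place of a poly(A) tail, which stem-loop binding protein recognizes. A few of these genes are also known to give polyadenylated mRNAs, above all in cells that leave the cell cycle. Kits for mRNA commonly select poly(A) tails, and how the kit used here selects mRNA is not given in the sources used.

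The stem-loop is the feature that sets these mRNAs apart, so the copies in some of the genes that the results turn on are shown. They were searched as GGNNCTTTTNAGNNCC in the GENCODE 29 transcripts, on the transcript's own strand. The 16 bases of the match are in capitals, with 5 transcript bases on each side.
H2AC6: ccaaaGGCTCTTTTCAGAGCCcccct
H2BC21: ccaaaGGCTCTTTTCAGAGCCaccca
H2BC4: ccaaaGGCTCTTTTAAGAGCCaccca
H2BC5: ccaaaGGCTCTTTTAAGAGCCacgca
H4C8: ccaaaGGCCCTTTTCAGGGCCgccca
H2AC6 and H2BC21 shared the form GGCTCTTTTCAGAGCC, which 10 of the 56 genes carried, and H2BC4 and H2BC5 shared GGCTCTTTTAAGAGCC, which 4 carried. H4C8 had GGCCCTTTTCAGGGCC, a form of 4 genes. Of the 52 genes with a GENCODE transcript, 22 held a match. By transcript, 32 of their 75 (42.7%) held one, against 128 of all 206694 (0.0619%). Many of the annotated models stop before the 3' end, and for H1-10 and H1-2 no match was present in the models searched. H2BC5 had 1 model that ran past the match by only 39 bases and 1 longer model without it, and the match of H2BC21 was followed by 1729 further bases. The gene counts do not separate reads of the stem-loop form from reads of the longer forms.

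Promoters of 52 of the 56 genes were held in RefSeq's table (GRCh38.p14, 250 bases before to 50 after the gene's start). Those of H1-2, H2BC12 and H1-10 are shown because H1-2 and H1-10 passed the test, H2BC12 was the most abundant clustered gene, and each has its own set of elements. Capitals mark matches on either strand to the CCAAT box, the TATA box searched as TATAAA, the octamer searched as ATTTGCAT, and the H1 box searched as AAACACA, and adjoining capitals can belong to overlapping matches.
H1-2, chr6:26056421-26056720, minus strand: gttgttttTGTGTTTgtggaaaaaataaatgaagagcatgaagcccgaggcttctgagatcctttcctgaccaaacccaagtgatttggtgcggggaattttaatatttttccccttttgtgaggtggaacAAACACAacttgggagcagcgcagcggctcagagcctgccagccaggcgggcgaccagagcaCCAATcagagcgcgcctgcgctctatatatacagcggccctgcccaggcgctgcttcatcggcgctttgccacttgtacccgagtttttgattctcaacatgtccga
H2BC12, chr6:27146809-27147108, minus strand: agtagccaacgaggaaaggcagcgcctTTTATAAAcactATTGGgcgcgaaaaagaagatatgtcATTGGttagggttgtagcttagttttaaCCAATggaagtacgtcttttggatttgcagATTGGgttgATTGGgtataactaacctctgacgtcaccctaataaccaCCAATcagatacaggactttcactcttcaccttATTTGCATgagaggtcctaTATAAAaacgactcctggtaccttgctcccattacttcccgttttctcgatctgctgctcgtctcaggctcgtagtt
H1-10, chr3:129316237-129316536, minus strand: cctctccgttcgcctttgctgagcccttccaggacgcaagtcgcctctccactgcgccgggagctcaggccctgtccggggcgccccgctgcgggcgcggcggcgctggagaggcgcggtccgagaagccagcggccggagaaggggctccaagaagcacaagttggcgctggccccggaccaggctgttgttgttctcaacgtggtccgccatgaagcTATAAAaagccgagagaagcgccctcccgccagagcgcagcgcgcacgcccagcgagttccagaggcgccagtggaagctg
In H1-2 the AAACACA box, known from H1 genes, began 119 bases before the start and CCAAT, the box bound by NF-Y, 57 before it. In H2BC12 the octamer ATTTGCAT, the element of H2B promoters bound by OCT1, began 46 bases before the start, followed by TATAAA at 27 before. H1-10 had TATAAA at 31 bases before its start and no match to the other letters.

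CCAAT was present in 43 of the 52 promoters (82.7%) against 35.7% of all 27305 promoters, and TATAAA in 34 (65.4%) against 12%. The octamer was present in 20 (38.5%) against 1.80%, with 9 of 13 H2A genes, 10 of 13 H2B genes, 1 of 9 H3 genes and no H1 or H4 gene. AAACACA was present in 7 (13.5%) against 5.76%, namely all 6 clustered H1 genes and H2AC20. CACGTG, the E-box bound by MYC, was in none of the 52 windows and in 7.43% of all promoters. Absence of these letters says nothing about the factor.

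Most of the 56 genes were barely read. Of the 37 genes left out by the filter on low counts, the highest value in any sample was 17 reads (H2AC13, vector replicate 2), and 12 genes had at most 3 reads in every sample. Only 7 genes reached 100 reads in every sample, namely H1-10, H1-2, H2BC12, H2BC21, H2BC5, H2BC4 and H2AC6. Between 8 and 13 of the 56 genes were at 0 in a sample. The 55 clustered genes together took between 0.00482% and 0.00677% of a library's reads, and differences in the 37 genes were not detectable at this depth.

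Of the 19 genes tested, 2 (10.5%) had an adjusted p under 0.05 with edgeR's quasi-likelihood test, against 18.1% of all 14467 genes tested. H1-10 was higher, where 9.97% of all genes were, and H1-2 was lower, where 8.14% were. No overlap between the groups was seen for 5 of the 19 (26.3%), H1-10, H1-2, H2BC12, H2BC5 and H2AC11, against 36.8% of all genes. The median log2 fold change (oeRNF112 over vector) of the 19 was -0.14, against 0.0027 over all genes tested, with 11 values below 0 and 8 above. The share called and the share without overlap were both below those of all genes. Many of the 19 had few reads, and with counts this small no difference from all genes is claimed. All 3 samples of a group reached the filter's level only in oeRNF112 for H2AC20 and H4C8, and only in vector for H2AC8 and H2BC15. Some samples of the other group reached it too.

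**Figure D1:**
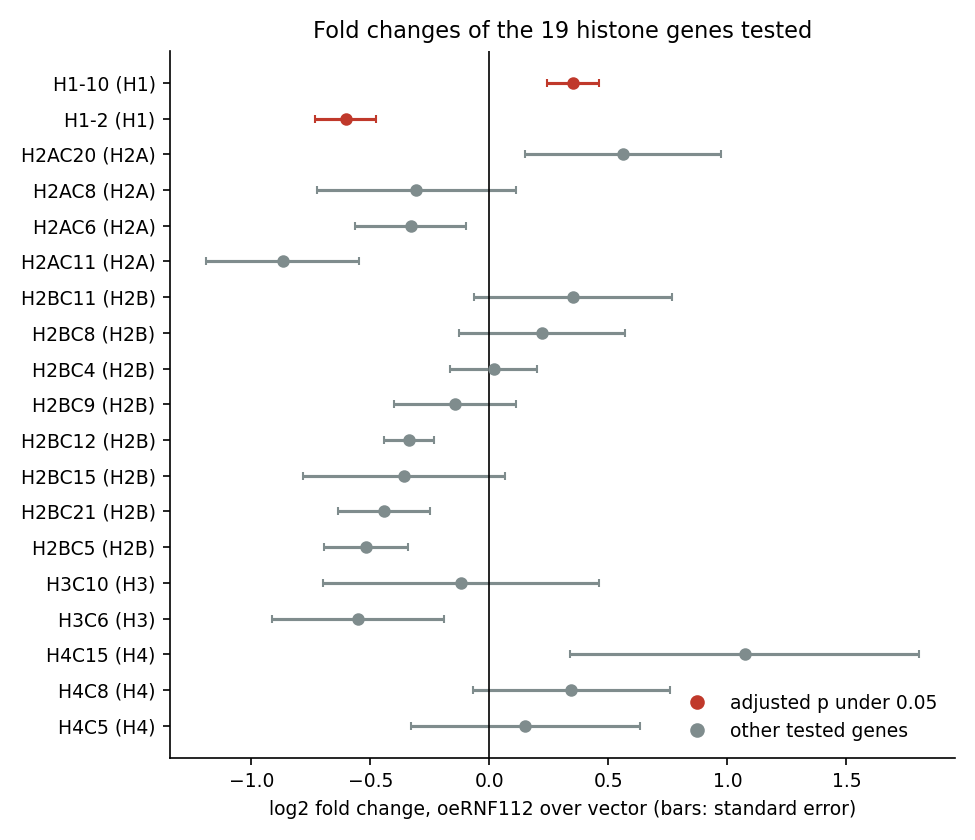
log2 fold changes of the 19 histone genes tested, oeRNF112 over vector, with bars of 1 standard error and red points at an adjusted p under 0.05. The red points are H1-10 at 0.35 and H1-2 at -0.60.

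H1-10 (chr3:129314771-129316286), a linker histone variant, was the most deeply read of the 56 genes. Its reads were 5818, 5358 and 6507 in vector and 7933, 8603 and 7338 in oeRNF112. The lowest oeRNF112 sample lay above the highest vector sample. The RPKM, scaled by library totals, was 95.6 ± 9.82 (SD, n = 3) in vector and 130.2 ± 10.1 (SD, n = 3) in oeRNF112. In edgeR's fit, scaled by TMM, the fold change was 1.28. With library totals in that fit the log2 fold change was 0.45. Ranked by RPKM among all rows, H1-10 stood at places 575 to 649 in the vector samples and 403 to 424 in oeRNF112. It held 66.2% to 72.1% of the reads of the 56 genes in vector and 77.6% to 79.1% in oeRNF112. Its log2 fold change was 0.35 (standard error 0.109, edgeR adjusted p = 0.0493), just inside the threshold, and it passed in 8 of 14 other settings with adjusted p between 0.0149 and 0.2001. Without vector replicate 1 the adjusted p was 0.147, without vector replicate 2 0.0891, without oeRNF112 replicate 1 0.140 and without oeRNF112 replicate 2 0.109, each from edgeR's test. The gene overlaps H1-10-AS1, an antisense RNA with 82 to 144 reads, and the strand setting of the counting is not given in the sources used here.

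Of the 6 clustered H1 genes, only H1-2 (chr6:26055740-26056470) was read well enough to be tested. H1-2 had 438, 405 and 365 reads in vector and 272, 307 and 260 in oeRNF112, with no overlap. Its log2 fold change of -0.60 (standard error 0.129, edgeR adjusted p = 0.0116) put it at 65.8% of the vector level. The adjusted p was 0.0679 without vector replicate 1, 0.0538 without oeRNF112 replicate 1 and 0.0626 with a replicate block, all from edgeR's test. The other H1 genes, H1-1, H1-3, H1-4, H1-5 and H1-6, had at most 13 reads in any sample. The 7 H1 genes summed to 160.5 CPM in vector and 198 in oeRNF112 (1.23-fold), while the 6 clustered ones summed to 10.6 and 6.91 CPM (0.650-fold). In both sums the groups did not overlap. A sum over all 56 genes (1.13-fold, with overlapping groups) follows H1-10, while the median over the 19 tested was below 0.

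The H2B class was led by H2BC12 (chr6:27138293-27146858), with a mean RPKM of 25.6. H2BC12 had 976, 994 and 1040 reads in vector and 866, 892 and 758 in oeRNF112, without overlap, and its log2 fold change of -0.34 (standard error 0.105) fell just outside the threshold (edgeR adjusted p = 0.0504). H2BC5, next in RPKM, had 235, 241 and 232 reads against 200, 189 and 132, a log2 fold change of -0.52 (standard error 0.176, edgeR adjusted p = 0.0676). Its groups did not overlap either, but oeRNF112 replicate 3 lay well below its group. H2BC21 had 254, 347 and 278 reads against 288, 178 and 217, so that its groups overlapped (log2 fold change -0.44, standard error 0.191, edgeR adjusted p = 0.137). H2BC4 had the value nearest to 0, with 139, 170 and 122 reads against 150, 176 and 134 (log2 fold change 0.02, edgeR adjusted p = 0.959). The remaining tested H2B genes, H2BC8, H2BC9, H2BC11 and H2BC15, had 8 to 51 reads per sample and log2 fold changes between -0.36 and 0.35. None of the 8 tested H2B genes passed the test. The summed level of the 13 was 45.7 ± 1.67 CPM in vector and 36.8 ± 3.99 in oeRNF112 (SD, n = 3 each), a ratio of 0.804 with no overlap. In an exact permutation test, 3 samples against 3 cannot give a two-sided p below 0.1.

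The H2A class was led by H2AC6 (chr6:26124172-26124690), with 177, 207 and 120 reads in vector and 169, 146 and 107 in oeRNF112. These overlapped (log2 fold change -0.33, edgeR adjusted p = 0.353). H2AC11 had 26, 34 and 25 reads against 19, 13 and 17, which did not overlap, with a log2 fold change of -0.87 (standard error 0.323, edgeR adjusted p = 0.0898). H2AC8 had 28, 23 and 17 reads against 9, 24 and 25, and H2AC20 had 19, 10 and 12 against 22, 28 and 14. Both overlapped, and their log2 fold changes were -0.31 and 0.56 (edgeR adjusted p = 0.641 and 0.372). The 14 H2A genes summed to 7.21, 7.88 and 5.31 CPM in vector and 6.13, 5.84 and 4.30 in oeRNF112, which overlapped (ratio 0.798).

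The H3 and H4 genes were nearly unread. For H3C6 there were 38, 18 and 37 reads in vector and 25, 19 and 23 in oeRNF112, and for H3C10 3, 17 and 14 against 16, 9 and 8. Their log2 fold changes were -0.55 and -0.12 (edgeR adjusted p = 0.314 and 0.908). Among H4 genes, H4C15 had 8, 22 and 1 reads against 8, 35 and 26, H4C8 had 8, 13 and 14 against 16, 20 and 11, and H4C5 had 6, 17 and 11 against 12, 9 and 19. None passed (log2 fold changes 1.07, 0.34 and 0.15, edgeR adjusted p = 0.338, 0.596 and 0.857). For H4C8, oeRNF112 was the only group in which all samples reached the filter's level. The log2 fold change of H4C15 was 2.23 without vector replicate 2, 0.55 without vector replicate 3 and 0.64 without oeRNF112 replicate 2 (edgeR adjusted p = 0.0507, 0.606 and 0.620). The RefSeq span of H4C15, 16753 bases, overlaps H2AC19, H3C15 and H2BC20P. Whether the 2662 bases over which it is counted overlap them was not tested, so its reads may not come from H4 alone. Summed over the class, H3 gave 1.94 CPM in vector and 1.40 in oeRNF112 and H4 gave 1.30 and 1.70, and in each the groups overlapped.

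**Figure D2:**
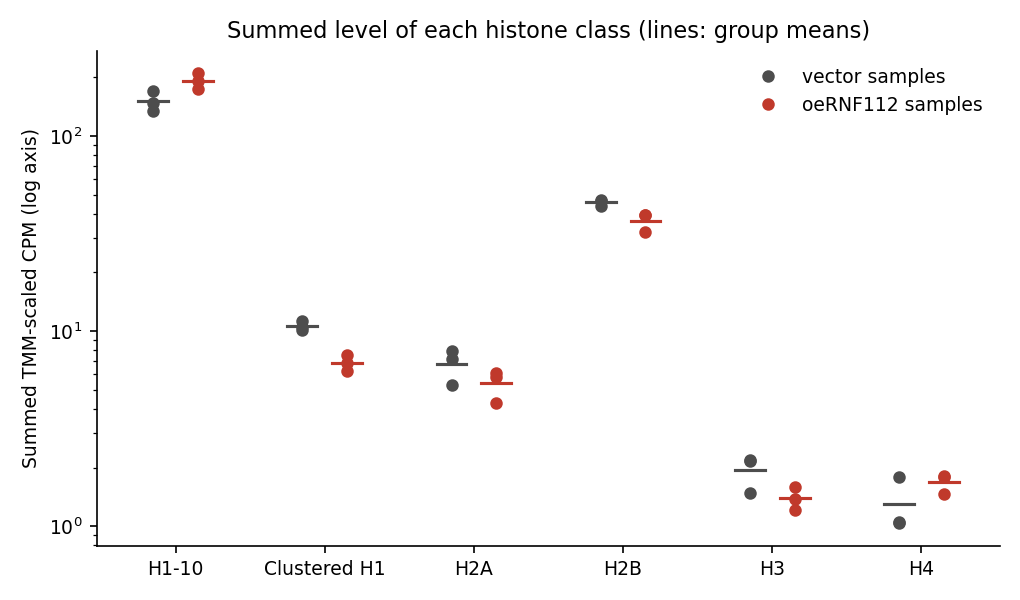
Summed TMM-scaled CPM of each histone class per sample, with group means as lines, on a logarithmic axis (grey, vector; red, oeRNF112). H1-10 is higher in oeRNF112, clustered H1 and H2B are lower without overlap, and H2A, H3 and H4 overlap.

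Among the clustered genes, some are known also as polyadenylated mRNAs, and H1-2, H2AC6, H2BC4, H2BC5, H2BC12 and H2BC21 were taken as such. These 6 were also the clustered genes with at least 100 reads in every sample. The list was chosen with earlier results of these data known, so this match is no test of a link between polyadenylation and depth. They held 82.7% to 86.3% of the reads of the 55 clustered genes. Of the 6, 1 (16.7%) was lower and none higher, where 8.14% of all genes tested were lower and 18.1% were called in either direction. Values below 0 were seen for 5 of the 6, and their median log2 fold change was -0.39. Their sum went from 57.04 to 43.6 CPM (ratio 0.765), with 55.9 to 59.1 in the vector samples and 38.0 to 46.9 in oeRNF112. The other 49 clustered genes summed to 9.37 CPM in vector and 8.59 in oeRNF112, which overlapped, from only 337 to 395 reads per sample. Of these 49, 12 were tested and none was called, with a median of 0.02. Within the H2B class the same split left 3.17 CPM in vector and 3.27 in oeRNF112 for the 9 other genes. All 55 clustered genes summed to 66.4 CPM in vector and 52.2 in oeRNF112 (ratio 0.786), without overlap.

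By position, the 26 genes of the first group on chromosome 6 (chr6:26017032-26285534) summed to 0.767 of the vector level and the 20 of the second (chr6:27132316-27893891) to 0.797, both without overlap. These ratios rest on a few genes. H2BC12 held 25.5 of the second group's 28.7 CPM in vector and 20.2 of 22.9 in oeRNF112. In the first group, H1-2 held 10.2 of 29.1 CPM in vector and 6.72 of 22.3 in oeRNF112. H2BC5, H2AC6 and H2BC4 held most of the rest there. The 9 genes on chromosome 1 (chr1:149782689-149887965) had a ratio of 0.817 with overlapping groups, and H2BC21 held most of their reads. Of 21 other genes that lie between or beside the histone genes on chromosome 6, 15 were tested, 2 were lower and none higher, with a median of 0.04. The share called lower was 13.3%, against 8.14% of all genes tested, while 18.1% of all genes were called in either direction. With counts this small, no difference from all genes is claimed. The lower ones were HFE, the regulator of iron uptake (log2 fold change -0.49, edgeR adjusted p = 0.0185), and the butyrophilin BTN3A2 (-0.33, edgeR adjusted p = 0.0304).

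Many H2A and H2B genes lie head to head and share 1 promoter region, and 7 such pairs were found in the table. Levels were compared on the RPKM scale, which divides by the counted length. H2BC15 was above H2AC15 in all 6 samples (mean RPKM 0.774 and 0.108), as was H2BC21 above H2AC20 (2.89 and 0.875). In the pair of H2BC4 and H2AC6 the H2A gene was higher in all 6 samples, with 5.11 to 9.85 RPKM against 1.25 to 1.79. This order rests on the counted lengths, 519 bases for H2AC6 and 2426 for H2BC4, since H2BC4 held more reads in 3 of the 6 samples and its GENCODE models are at most 659 bases long. In the other 4 pairs neither gene was higher in every sample. Both genes were tested in 4 pairs, and no gene of the 7 pairs passed the test.

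The counted length ran from 387 to 2700 bases, and 41 of the 56 genes were counted over at most 600 bases, near the length of the stem-loop form. H2AC6, for example, was counted over 519 bases, while GENCODE holds models of up to 1668 bases. Of all 50-base stretches in the GENCODE models of H2BC12, 74.1% also occur in another histone gene, and for H4C15 the share was 97.2%, for H2AC20 30.5% and for the H1 genes 0. For the other tested genes it was at most 8.11% (H2BC21). The values of H2BC12, H4C15 and H2AC20 are uncertain for this reason, and the gene spans of H2BC12 and H2BC5 also overlap other annotated genes. The shares are over the GENCODE models and not over the counted bases. The GENCODE model of H2BC12 has 381 bases, against 887 counted, and a model of H2BC15 has 4137, against 542 counted. Shares over the counted bases were not tested, so values of other genes may be uncertain too.

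Replacement variants are histones that can also be used outside S phase, and most of their mRNAs carry a poly(A) tail. All 10 tested had values below 0, with a median of -0.25, and 4 (40%) passed the test as lower, against 8.14% of all genes tested. H2AZ2, a variant of H2A.Z, had 9747, 9723 and 9694 reads against 7696, 7559 and 7679 and fell by 0.43 on the log2 scale (edgeR adjusted p = 0.00499). CENPA, the centromere form of H3, fell by 0.50 (edgeR adjusted p = 0.00737), H3-3A, 1 of the genes of H3.3, by 0.48 (edgeR adjusted p = 0.0154) and H2AX, which is phosphorylated at DNA breaks, by 0.45 (edgeR adjusted p = 0.0258). The 2 most deeply read variants did not pass, H3-3B at -0.07 and H2AZ1 at -0.13 (edgeR adjusted p = 0.647 and 0.524). None of the 10 rose in this fit, which was scaled by TMM. Scaled by library totals, the mean RPKM of H3-3B was 526.1 in vector and 533.8 in oeRNF112. For the other variants the mean RPKM was lower in oeRNF112.

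None of the 7 genes for transcription of the clustered genes and their nuclear body passed, where 18.1% of all genes did. NPAT, the cyclin E target that activates them, had a log2 fold change of 0.20 (edgeR adjusted p = 0.353), HINFP, the H4 promoter factor, of -0.18 (edgeR adjusted p = 0.267) and POU2F1, which binds the octamer, of 0.33 (edgeR adjusted p = 0.219). None of the 14 genes of 3' end processing and decay passed either, and counts of 0 in lists this short do not show that the lists differ from other genes. SLBP, the stem-loop binding protein, had 5413, 4784 and 5184 reads in vector and 5724, 6389 and 5804 in oeRNF112 (log2 fold change 0.14, edgeR adjusted p = 0.319). The smallest p in that list belonged to SRRT, a partner of the cap-binding complex (-0.28, edgeR adjusted p = 0.0610).

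Of 19 histone chaperones and import factors, 3 were lower and none higher, with a median of -0.09. The share called lower was 15.8%, against 8.14% of all genes tested, while 18.1% of all genes were called in either direction. With counts this small, no difference from all genes is claimed. IPO4, which imports H3 and H4, fell by 0.56 (edgeR adjusted p = 0.00269), SSRP1, a subunit of FACT, by 0.38 (edgeR adjusted p = 0.0107) and NAP1L1, a chaperone of H2A and H2B, by 0.33 (edgeR adjusted p = 0.0280). The 2 tested large subunits of CAF-1, CHAF1A and CHAF1B, were at -0.01 and 0.07 (edgeR adjusted p = 0.958 and 0.579).

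Of 29 S-phase genes, 11 (37.9%) were lower, against 8.14% of all genes tested, and 1 was higher, with a median of -0.22. TYMS, the thymidylate synthase, fell by 0.53 (edgeR adjusted p = 0.00737), and the helicase subunits MCM5, MCM6 and MCM3 by 0.49, 0.40 and 0.38 (edgeR adjusted p = 0.00639, 0.00815 and 0.0106). CCNE1, cyclin E1, was the gene that rose (0.43, edgeR adjusted p = 0.0357). These values moved with the lower sum of the clustered genes, and their part in it was not tested.

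The cells were read as epithelial by keratins, with KRT18, KRT8 and KRT7 abundant in every sample, while CDH1 had at most 1 read and UPK2 at most 7. Of 8 epithelial markers tested, 2 (25%) were lower, against 8.14% of all genes tested, and 1 was higher, where 9.97% of all genes were. The lower ones were KRT18 and KRT7 (log2 fold changes -0.51 and -0.48, edgeR adjusted p = 0.0130 and 0.0226), and EPCAM was higher (0.84, edgeR adjusted p = 0.0208). The epithelial markers summed to 3590 to 4610 CPM in vector and 2770 to 3320 in oeRNF112. Of 9 leukocyte markers in the table, 4 were tested and 1 (25%) was lower, against 8.14% of all genes tested, namely LAPTM5 (log2 fold change -0.88, edgeR adjusted p = 0.0308). They summed to 9.54 to 10.9 CPM in vector and 5.50 to 8.54 in oeRNF112, with CD3E, NKG7 and TYROBP at 0 to 4 reads. Of 8 fibroblast and endothelial markers, 3 were tested and PDGFRA had 1, 3 and 8 reads against 19, 29 and 19 (log2 fold change 2.37, edgeR adjusted p = 0.0194). It passed the filter only through the group where it is high, so this call is no support for a difference. The 8 markers had sums of 9.53 to 12.4 and 12.8 to 13.1 CPM. DCN and LUM had at most 3 reads. With counts this small, no difference of the marker lists from all genes is claimed. The part of these markers in the histone values was not tested.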

How the data were processed

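RNA-seq of 3 vector and 3 oeRNF112 samples of T24 cells was used. The authors deposited raw counts of reads per gene and RPKM values, in which reads are divided by the length of the gene and the total of the library. Their processing notes name Trimmomatic 0.36, featureCounts of Subread 1.5.1 and GRCh38, and the aligner, annotation and strand setting are not given in the sources used here. For 20637 of 20637 genes the deposited RPKM equalled the count over the column total and 1 length (tolerance 0.001). The RPKM served for levels between genes.

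Counts were tested with edgeR 4.0.16 in R 4.3.3 (filterByExpr with a minimum of 10, TMM factors, quasi-likelihood test, Benjamini-Hochberg adjustment over 14467 genes, threshold 0.05). The TMM factors ran from 0.957 to 0.988 for vector and from 1.01 to 1.05 for oeRNF112. CPM were scaled by TMM. The test was checked on simulated data. Alternatives were DESeq2 1.42.0, its size factors, library totals, no filter, at least 10 counts in every sample, limma 3.58.1 on log2(RPKM + 1) or log2(RPKM + 0.1), leaving out each sample, a replicate block, and, chosen after seeing the data, counts and class values without H1-10.

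The members and the gene lists were chosen with earlier results of these data known. By the rule used, any of the 56 genes could be named. Full statistics were given for the 3 tested genes of each class with the highest RPKM, the 12 with the smallest p, RNF112 and at most 4 genes per list with the smallest p. SLBP, CHAF1A, CHAF1B, CCNE1, H3-3B, H2AZ1 and the markers at low counts fall outside the rule and were chosen after their values were seen. Sequences came from RefSeq (GRCh38.p14) and GENCODE 29. The results of some genes that the naming rule or the lists take are not reported here and do not enter the counts, sums and medians of these groups, while every fit held all genes. No row carried the symbols searched for other RNA classes without a poly(A) tail, such as small nuclear and small nucleolar RNAs. Such RNAs under other names were not searched, and none were analysed here.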

Additional observations from a re-analysis of the deposited data

How the results depend on the processing

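Of the 14 alternatives tried, H1-2 passed in 11 (largest adjusted p 0.0679) and H1-10 in 8. The count of histone genes that differed, 2 in the report, was 4 with DESeq2, 0 with the replicate block and 1 without H1-10. The count higher, 1 in the report, was 0 with edgeR on DESeq2's size factors, 0 with the replicate block and 0 without H1-10. The count lower, 1 in the report, was 3 with DESeq2, 2 with edgeR on its size factors, 2 with limma at either pseudocount and 0 with the replicate block. The extra lower calls were H2BC12 with DESeq2 and with its size factors, H2BC5 with DESeq2, and H2AC11 with limma. The cause of these shifts was not tested, except that the setting without H1-10 leaves a called gene out by construction.

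With 1 sample left out, the count that differed ranged from 0 to 2, the count higher from 0 to 1 and the count lower from 0 to 1. Without vector replicate 1, and likewise without oeRNF112 replicate 1, no histone gene described here was called, and H1-10 was also lost without vector replicate 2 and without oeRNF112 replicate 2. The H2A median ranged from -0.51 to -0.16, the H2B median from -0.27 to -0.0176 and the median of all tested also from -0.27 to -0.0176. Genes that changed sign were H2AC8 (-0.52 to 0.0300), H2BC11 (-0.18 to 0.66), H2BC4 (-0.0914 to 0.14), H2BC8 (-0.0161 to 0.42), H2BC9 (-0.26 to 0.0081), H3C10 (-0.56 to 0.27) and H4C5 (-0.175 to 0.545). H3C10 also reversed with limma, to 0.00825 and 0.137.

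The H1 median of -0.13 was -1.004 with no filter, -0.0132 with limma at the larger pseudocount and -0.60 without H1-10. The median of all tested histone genes, -0.14, was -0.0511 with library totals, -0.32 with no filter, -0.32 with at least 10 counts, -0.0438 and -0.0636 with limma at the larger and the smaller pseudocount, and -0.23 without H1-10. The summed H1 log2 ratio of 0.30 was -0.62 without H1-10. Over all genes, 55.0% of calls were higher, against 75.4% with library totals and 73.6% and 73.8% with limma. The number of genes called was 2620, against 876 with the replicate block and 1061 without vector replicate 1.

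The replicate numbers did not pair the samples, since same-numbered samples correlated at -0.12, -0.36 and -0.30 in their deviations from the group means. Samples of different numbers correlated at -0.07 to 0.36, the highest for vector replicate 2 and oeRNF112 replicate 3. What lies behind these correlations was not tested. With the replicate block 0 of the histone genes described here were called, with adjusted p of 0.0626 for H1-2 and 0.2001 for H1-10. The 37 untested genes had too few reads for a test.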

Other observations

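RefSeq lists 3 further genes of this symbol form that the table holds under other names. H2AW, listed by RefSeq as H2AC25, had 122, 114 and 120 reads in vector and 155, 157 and 113 in oeRNF112, with a log2 fold change of 0.18 (edgeR adjusted p = 0.538). H2BU1 had 0, 3 and 6 reads against 7, 2 and 3, and H4-16 had 6, 15 and 2 against 2, 1 and 5, and neither passed the filter on low counts.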
